A study of Mus musculus with 3 samples.

Results

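The cells described here are fibroblasts of the mouse femoral artery that carry transcripts of at least 2 of Inmt, Penk, C7 and Dpep1. Most came from sham-operated arteries and are called resting, and the others came from injured arteries. They were chosen by a rule on UMI counts (a UMI is a unique molecular identifier, which marks 1 captured transcript). A barcode was kept with at least 1000 UMIs, at least 300 genes and at most 15% mitochondrial UMIs. It was gated as a fibroblast when at least 5 of 8 fibroblast genes were detected (Pdgfra, Dcn, Lum, Col1a1, Col1a2, Dpt, Clec3b, Serpinf1) with at most 1 UMI each of Ptprc and Pecam1. A gated fibroblast was selected when it held at least 2 of Inmt, Penk, C7 and Dpep1, and more of these than of each of 4 other sets of 4 genes, which mark Pi16/Dpp4, Cthrc1/Aspn, Cxcl14/Mmp3/Cilp and Chl1/Sned1 fibroblasts. The rule selected 1047 cells, here called Inmt/Penk/C7 cells, of 5479 gated fibroblasts and 28139 kept barcodes in the series.

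The series holds 3 droplet libraries of live sorted arterial cells from 8-week-old wild-type male mice. They are Sham (a sham operation, with no harvest time given in the labels), D2 (2 days after wire injury of the femoral artery) and D7 (7 days after it). Wire injury denudes and stretches the artery, and its femoral form is a common mouse model of neointima formation. Each library pools 6 mice, so there is no replicate of any group, no difference between groups could be tested, and mice cannot be separated within a library.

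Arterial fibroblasts lie mainly in the adventitia, the outer coat of the vessel, where they build matrix and signal to immune and endothelial cells. In unperturbed tissue, 2 kinds recur across organs: Pi16/Dpp4 cells of the outer fascia-like layers, with progenitor features, and Col15a1 cells, which make basement membrane proteins. Inmt encodes an N-methyltransferase of indoleamines, Penk the precursor of the enkephalin opioid peptides, C7 a component of the complement membrane attack complex, and Dpep1 a membrane dipeptidase that cleaves leukotriene D4. In the GENCODE annotation of the mm10 genome, Inmt lies on chromosome 6 (chr6:55170626-55175043, minus strand) and Penk on chromosome 4 (chr4:4133531-4138819, minus strand). C7 lies on chromosome 15 (chr15:4988762-5063740, minus strand) and Dpep1 on chromosome 8 (chr8:123186242-123201812, plus strand).

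Of 7757 barcodes deposited for Sham 6006 were kept, of 11690 for D2 11191 and of 11574 for D7 10942, and any 2 libraries shared 21 to 29 barcodes, none of them an Inmt/Penk/C7 cell in both. The median depth of the Inmt/Penk/C7 cells was 4217.5 UMIs in Sham, 4300 in D2 and 5050.5 in D7, below that of the other gated fibroblasts (6176, 10602.5 and 12369 UMIs). Their median mitochondrial share was 1.49%, 1.83% and 1.99%. Levels are the UMIs of a gene summed over the cells of a group and scaled to the total of that group, in CPM. Intervals are at 95% and cover counting error only. UMIs are treated as independent, so an interval is too narrow for a gene whose UMIs come from few cells.

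Inmt/Penk/C7 cells were the most frequent of the 5 gene-set groups among Sham fibroblasts and were rare after injury. They made up 960 of 2503 gated fibroblasts in Sham (38.4%, interval 36.4 to 40.3), 11 of 101 in D2 (10.9%, 5.56 to 18.7) and 76 of 2875 in D7 (2.64%, 2.09 to 3.30). The share at D7 was 14.5-fold lower than in Sham (11.5 to 18.6). At D2 it was 3.52-fold lower than in Sham (1.96 to 7.08), and at D7 4.12-fold lower than at D2 (1.97 to 7.8), with D2 resting on 11 cells. Of all kept barcodes they were 16.0% in Sham, 0.0983% in D2 and 0.695% in D7. Gated fibroblasts of any kind were 41.7%, 0.903% and 26.3% of the kept barcodes, so D2 held few fibroblasts of all kinds.

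Pi16/Dpp4 cells were likewise a lower share after injury, with 623 of the gated fibroblasts in Sham (24.9%), 0 of 101 in D2 (a limit of 3 counts allows up to 2.97%) and 53 in D7 (1.84%). Cthrc1/Aspn cells, marked by a secreted collagen regulator of injury fibroblasts and by asporin, ran the other way, with 6, 7 and 934 cells (32.5% at D7). Of the other gated fibroblasts, 826 in Sham, 43 in D2 and 1048 in D7 fell in no set.

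**Figure D1:**
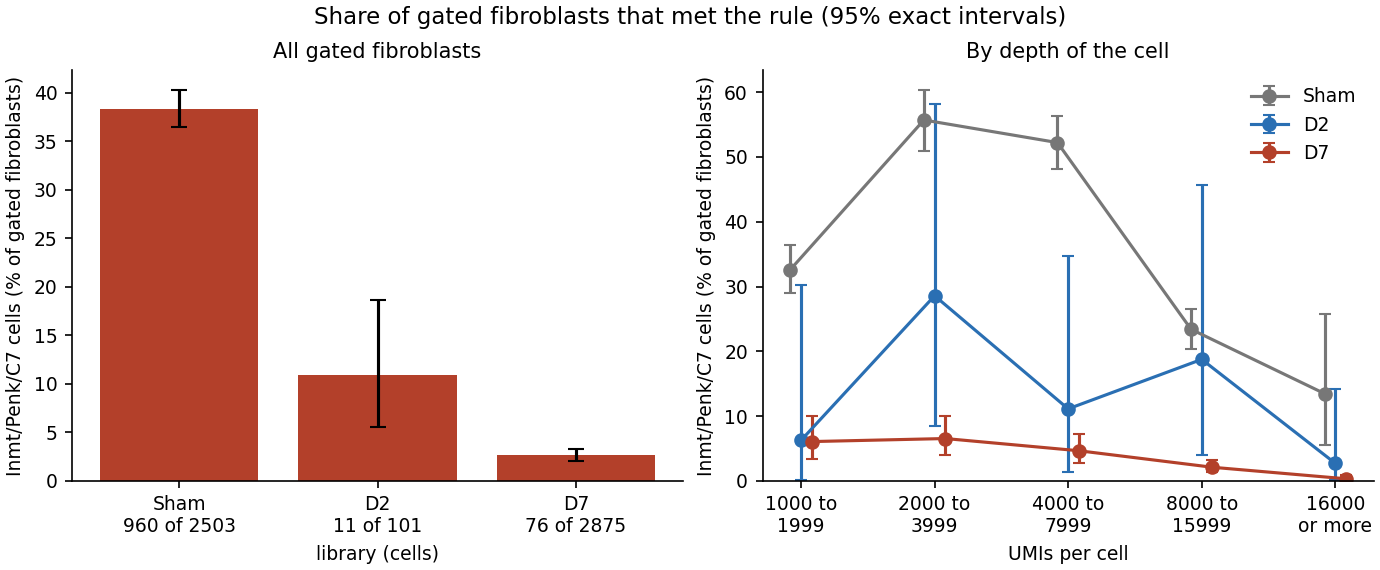
Share of gated fibroblasts that met the rule, in percent with 95% Clopper-Pearson intervals, for all gated fibroblasts of each library (left, bars) and in 5 classes of UMIs per cell (right, points). The Sham share is 38.4% and the D7 share 2.64%, and the D7 points lie below the Sham points in every depth class.

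The share differed with depth. In Sham it was 32.6% at 1000 to 2000 UMIs, 55.7% at 2000 to 4000, 52.2% at 4000 to 8000, 23.4% at 8000 to 16000 and 13.5% above that. In D7 the same classes held 6.06%, 6.53%, 4.65%, 2.10% and 0.318%. D7 was therefore lower than Sham at each depth, by more than the counting intervals. When every barcode was thinned to 1000 UMIs before the rule, the shares were 26.6% in Sham, 5.45% in D2 and 1.85% in D7. A gated fibroblast that loses these 4 transcripts leaves the group just as a cell that is lost from the tissue does. So does a cell that keeps 2 or more of them but holds as many or more genes of another set. In Sham, 286 such cells were tied with another set and 366 held more of another set. In D7 these were 127 and 308 cells. The share is also lower where other fibroblasts are more numerous. These routes cannot be told apart here.

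Within the group, all 4 selecting genes were common, and their levels, which chose the cells, are given as a description. In Sham 324 cells (33.8%) carried all 4 genes, 365 carried 3 and 271 carried 2. Their median depths were 6960, 4046 and 2024 UMIs, in the order of the number of genes seen. In D7 the numbers were 14 (18.4%), 32 and 30. Inmt was detected in 80.4% of the cells in Sham, 81.8% in D2 and 48.7% in D7, C7 in 82.8%, 100% and 97.4%, Dpep1 in 77.8%, 72.7% and 77.6%, and Penk in 64.5%, 36.4% and 55.3%. Beside these, the share of gated B cells with an Inmt UMI, a measure of free RNA in the droplets, was 0.361% in Sham (1 of 277 cells) and 0 of 719 in D7, and that with a C7 UMI 1.44% and 0.278%.

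Inmt stood at 798 CPM in the Sham cells, 290 CPM in D2 and 140 CPM in D7. The other gated fibroblasts held 97.7, 0.594 and 2.08 CPM. Penk stood at 506, 197 and 181 CPM, against 109, 27.9 and 17.8 CPM in the other gated fibroblasts. C7 differed least between the libraries, with 1413, 1198 and 1126 CPM, against 383, 121 and 149 CPM. Dpep1 stood at 519, 197 and 233 CPM, against 308, 67.7 and 28.4 CPM. The other fibroblasts, which had failed the rule on these genes, held nearly no Inmt after injury. The D7 cells that met the rule held lower CPM levels of Inmt, Penk and Dpep1 than those of Sham. Since these genes chose the cells, no conclusion is drawn from their levels.

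**Figure D2:**
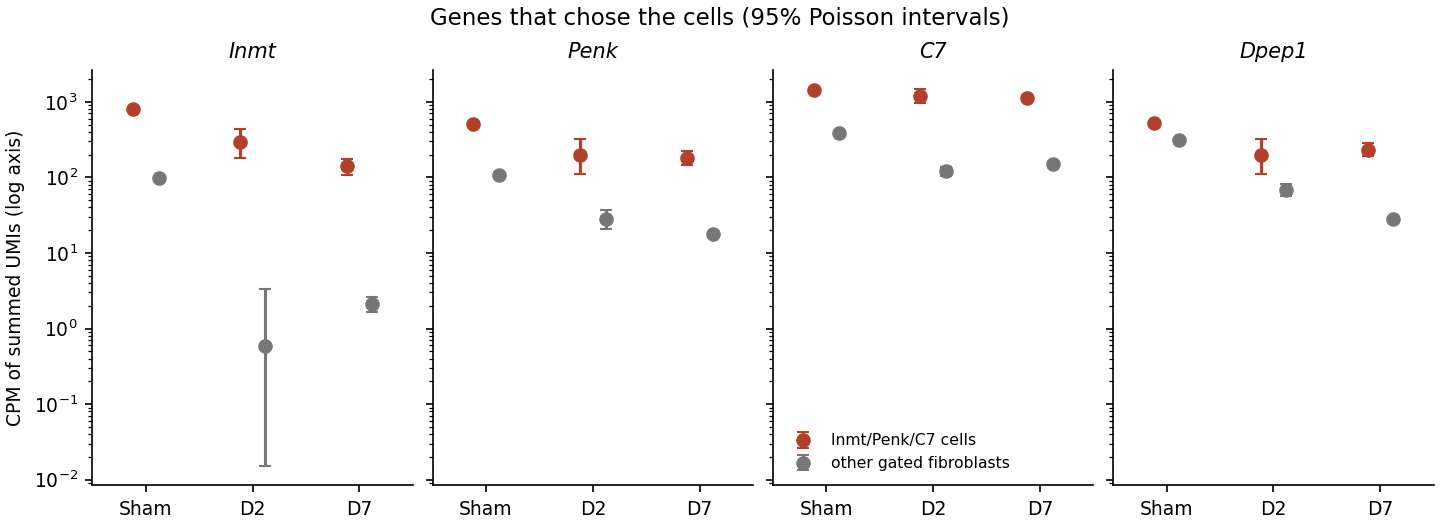
Level of the 4 genes that chose the cells, in CPM on a log axis with 95% Poisson intervals, by library, in Inmt/Penk/C7 cells (red) and other gated fibroblasts (grey). Inmt stands at 140 CPM in the D7 cells and to 2.08 CPM in the other D7 fibroblasts, while C7 stands at 1126 to 1413 CPM in the selected cells of the 3 libraries.

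Genes of the other sets were not absent. Cxcl14, a chemokine of the Cxcl14/Mmp3/Cilp set, stood at 1199, 3107 and 1119 CPM in the Inmt/Penk/C7 cells of Sham, D2 and D7, against 262, 1847 and 606 CPM in the other gated fibroblasts. Pi16, a peptidase inhibitor of adventitial progenitors, stood at 221, 197 and 208 CPM, against 2070, 34.5 and 262 CPM. Cthrc1 was near 0 in the Sham cells (0.207 CPM, 1 UMI), with 118 CPM in D2 and 133 CPM in D7, against 3.51, 554 and 809 CPM. Of the gate genes, Dcn was seen in 100% of the cells and Pdgfra in 73.1% of those in Sham and 69.7% in D7. Of 21 cell cycle genes, 1 in Sham and 2 at D7 reached the level needed for comparison with the other gated fibroblasts, and 0 were apart.

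Levels of cells just inside and just outside the rule are given as a description, since the rule uses these genes. In Sham, the 226 cells that held exactly 2 of the 4 genes and led by 1 had 567 CPM of Inmt and 413 CPM of Pi16, whereas the 286 cells left out by a tie had 283 CPM of Inmt and 1100.2 CPM of Pi16. In D7 the 30 cells inside had 99.4 CPM of Inmt and 63.9 CPM of Cthrc1, and the 127 cells in a tie had 27.8 and 340.2 CPM. Ties thus outnumbered the 76 selected cells at D7, and the D7 share with ties kept was 7.06%.

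Among markers of other cell types, the summed levels of macrophage and pericyte markers in these cells were higher after injury than in Sham, and those of smooth muscle markers lower. The pericyte sum was higher after injury in the other gated fibroblasts too. The summed level of 8 macrophage markers was 97.1 CPM in the Sham cells, 1119 CPM in D2 and 657 CPM in D7, against 137, 99.2 and 170 CPM in the other gated fibroblasts, with none of the 8 at 0. In D7, 6 of the 76 cells held at least 3 of these markers and 51 held none, and 3 cells carried 81.0% of the macrophage UMIs. In D2 3 of 11 did, and the deepest cell alone held 37 of its 18538 UMIs in Lyz2, the macrophage lysozyme. Smooth muscle markers (7) summed to 66.8, 0 and 25.01 CPM, against 286, 286 and 339 CPM in the other gated fibroblasts. The 0 of D2 comes from only 75961 UMIs over all genes. Pericyte markers (6) summed to 151, 421 and 265 CPM, mostly Abcc9, with Higd1b at 0 in all 3. In the other gated fibroblasts they summed to 67.8, 107.5 and 203 CPM. Endothelial markers (7) summed to 10.4 to 52.7 CPM, adipocyte markers (5) to at most 0.622 CPM and mesothelial markers (6) to at most 3.11 CPM. Erythroid markers summed to 49.4 CPM in the Sham cells, against 876 CPM in the other gated fibroblasts of Sham. Cxcl2, Ccl8, the chemokine list and the 16 named genes of D7 over Sham were also read without those 6 cells, and the part of macrophage transcripts in the other results was not tested.

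In Sham, the Inmt/Penk/C7 cells stood apart from the other gated fibroblasts in secreted factors and in genes of perivascular fibroblasts. They held more of the growth factor Gdf10, the chemokine Cxcl12, the monooxygenase Fmo2, the apolipoprotein Apoe and the complement component C4b. They held less of Igfbp5, Sema3c and Cd55. A gene is called apart where the ratio of (CPM + 1) reached 2 and the group with the higher level held no fewer than 50 CPM and 20 UMIs. Of 3621 genes compared, leaving out the 30 genes of the rule, 117 (3.23%) were higher and 175 (4.83%) lower in the Inmt/Penk/C7 cells, and the log2 ratio over all genes compared had a median of -0.01. The rule split these same cells, so the counts describe the groups and test nothing.

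Ccbe1, a secreted protein needed for lymphatic growth through VEGF-C, had the largest ratio of the genes eligible to be named: 164 CPM in the Inmt/Penk/C7 cells, against 27.0 CPM in the other gated fibroblasts (6.06-fold, 5.27 to 6.97). Gdf10, a member of the TGF-beta superfamily also called BMP3B, stood at 787 against 195 CPM (4.02-fold, 3.81 to 4.25) and was detected in 80.2% of the cells, against 44.7%. Fmo2, a flavin monooxygenase of xenobiotic metabolism, stood at 408 against 88.1 CPM (4.63-fold, 4.28 to 5.01). Such differences were also seen for Steap4, a metalloreductase of iron and copper, at 389 against 86.2 CPM (4.52-fold, 4.17 to 4.90). Cp, the copper ferroxidase ceruloplasmin, stood at 337 against 85.9 CPM (3.93-fold, 3.61 to 4.27). Cxcl12, a chemokine that retains leukocytes and progenitors, stood at 493 against 132 CPM (3.74-fold, 3.49 to 4.0). The matricellular gene Sparcl1, the matrix protein gene Spon1 and the related transmembrane protein genes Tmem176a and Tmem176b were 4.06-fold, 4.84-fold, 4.91-fold and 4.68-fold higher.

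The lowest ratios were those of genes nearly silent in the Inmt/Penk/C7 cells. Adamts16, a secreted metalloprotease, stood at 2.07 CPM (10 UMIs), against 142 CPM in the other gated fibroblasts (68.3-fold lower, 37.0 to 143). Dact2, an intracellular modulator of Wnt and TGF-beta signals, stood at 3.32 against 108 CPM (32.5-fold lower, 19.95 to 57.1). Sbsn, which encodes the secreted protein suprabasin, stood at 10.8 against 235 CPM (21.8-fold lower, 16.6 to 29.3). Limch1, a regulator of non-muscle myosin, stood at 13.3 against 246 CPM (18.5-fold lower, 14.5 to 24.1). Pla1a, a phospholipase, and the ephrin Efna5 were 14.1-fold and 11.9-fold lower.

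**Figure D3:**
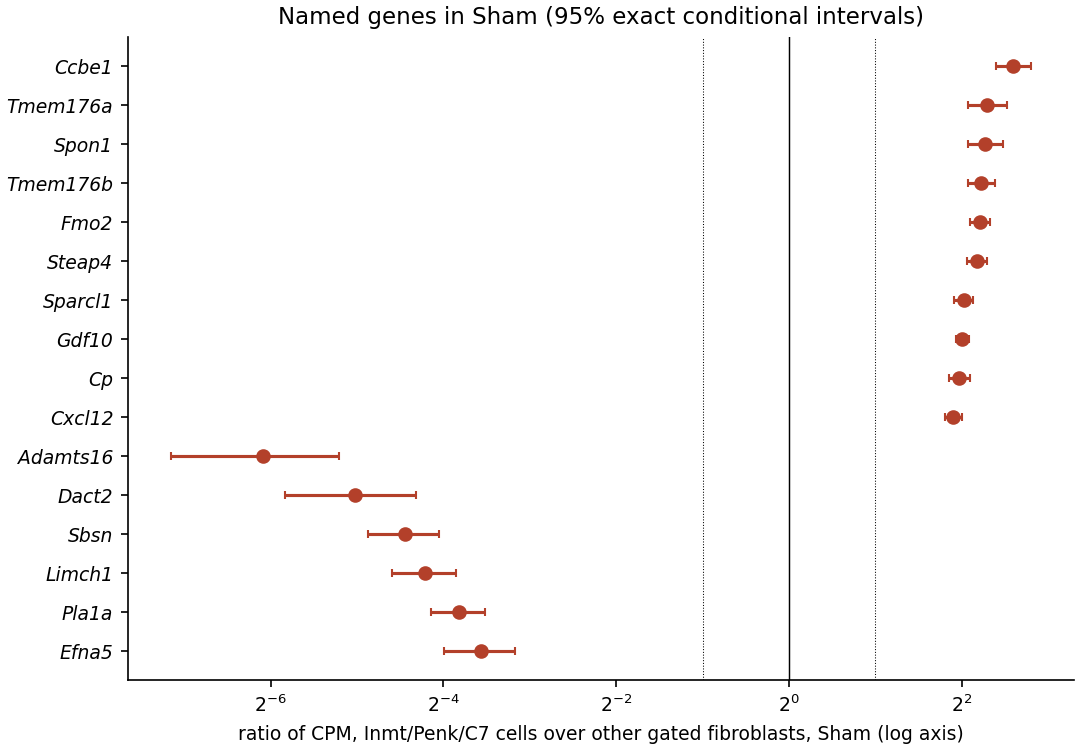
Ratio of CPM in Inmt/Penk/C7 cells over other gated fibroblasts of Sham, on a log axis with 95% exact intervals, for the 10 highest and 6 lowest genes eligible to be named. The dotted lines mark 2-fold, and the ratios run between 6.06 for Ccbe1 and 0.0146 for Adamts16.

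By gene list, perivascular genes were high and adventitial progenitor genes low. Of 17 perivascular resting fibroblast genes, 13 were compared of which 9 were higher and 0 lower (median log2 ratio 1.39). They include G0s2, an inhibitor of lipolysis (87.4 against 23.7 CPM), and Col15a1, a basement membrane collagen (317 against 108 CPM). Of 17 adventitial progenitor genes, 14 were compared and 0 were higher and 9 lower (median -1.71). Among these, Cd55, an inhibitor of complement on the cell surface, stood at 85.7 against 730 CPM, and the semaphorin Sema3c at 205 against 995 CPM. Both lists were drawn up with results of these data known and overlap in kind with the rule, so their direction is no independent finding. With the rule on barcodes thinned to 1000 UMIs the perivascular median was 0.87.

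Some lists on metabolism and complement also leaned high, though most members compared in each were not called higher. Glycolysis and hypoxia genes had 1 of 10 higher (median -0.05), antioxidant and metal genes 1 of 13 (median 0.08). Leukotriene and glutathione peptide genes had 0 of 2. Across the alternatives, the lowest medians were 0.43 for amine and xenobiotic, 0.35 for lipid, 0.33 for complement and 0.12 for retinoid genes. Of 13 amine and xenobiotic enzymes compared, 4 were higher and 0 lower (median 0.81): Fmo2, Fmo1 (184 against 78.9 CPM), the vascular amine oxidase Aoc3 (64.1 against 24.7 CPM) and the cytochrome Cyp1b1 (131 against 52.8 CPM). Of 9 complement genes, 3 were higher, among them C4b (637 against 202 CPM) and C2 (127 against 42.2 CPM), and Cd55 was lower. Reads of C4b could also come from its near copy C4a. Of 10 lipid handling genes, 4 were higher and 0 lower (median 0.64), among them Apoe (1197 against 246 CPM) and Lpl, lipoprotein lipase (927 against 422 CPM). Of 7 retinoid genes, 3 were higher, among them Adh1 (219 against 61.3 CPM) and Dhrs3, and Aldh1a3, a retinaldehyde dehydrogenase, was lower (11 against 103 CPM).

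Growth factor and matrix genes were mixed. Of 15 BMP and TGF-beta pathway genes, 5 were higher and 2 lower (median 0.01), the higher ones including the BMP modulators Bmper (282 against 94.3 CPM) and Chrdl1 (122 against 50.6 CPM). Of 8 insulin-like growth factor genes, Igf1 (880 against 397 CPM), Igfbp7 (1672 against 750 CPM) and Igfbp3 were higher. Igfbp5, which binds these growth factors, was the exception, at 617 against 3533 CPM (5.72-fold lower, 5.51 to 5.94). Of 21 extracellular matrix genes, 2 were higher and 3 lower (median 0.24), with Fbn1, the microfibril protein fibrillin, at 1074 against 2649 CPM and Fn1, fibronectin, at 1290 against 2838 CPM. Of 10 basement membrane genes, Col15a1, Col4a1 (595 against 255 CPM) and Col4a2 (236 against 99.0 CPM) were higher and Lamb1 was lower. Myofibroblast genes had 0 of 6 higher and 3 lower (median -1.32), namely Postn and the smooth muscle markers Acta2 and Tagln, and the median was -0.58 with the rule on thinned barcodes. Interferon response (9), dissociation response (19), unfolded protein response (14), glucocorticoid response (10) and transcription factor genes (16) had 0 genes apart, with medians between -0.09 and 0.27.

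Against the Pi16/Dpp4 cells, the other large resting group of Sham, several of the same genes were separated more widely. Of 3756 genes compared, 206 (5.48%) were higher and 302 (8.04%) lower in the Inmt/Penk/C7 cells, whose median depth of 4217.5 UMIs lay below the 10211 UMIs of the Pi16/Dpp4 cells. Spon1 stood at 133 CPM in the Inmt/Penk/C7 cells, against 3.08 CPM in Pi16/Dpp4 cells (43.1-fold, 27.4 to 72.1). Fmo2 was 32.3-fold higher (25.7 to 41.0), Gdf10 21.9-fold (19.2 to 25.3) and Col15a1 16.3-fold (13.5 to 19.8). Crispld2, a secreted glycoprotein, was 21.3-fold higher (131 against 6.16 CPM), and Apoe 14.6-fold (1197 against 81.7 CPM). Cxcl12 stood at 493 against 42.5 CPM (11.6-fold, 10.2 to 13.2). Gas6, a ligand of TAM receptors, stood at 381 against 36.5 CPM (10.4-fold, 9.08 to 12.04).

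Low against the Pi16/Dpp4 cells were Krtdap, a small secreted protein of keratinocytes (1.24 against 192 CPM, 154-fold lower, 70.5 to 420.0), and Adamts16 (107-fold lower). The guidance factor Sema3e stood at 2.49 against 143 CPM, and the growth factor Bmp6 at 1.45 against 66.0 CPM (45.4-fold lower, 21.9 to 114). Perivascular genes had 9 of 13 higher and 0 lower (median 2.66), and adventitial progenitor genes 0 higher and 10 of 14 lower (median -2.09). Amine and xenobiotic enzymes had 7 of 13 higher and 0 lower (median 1.07). Myofibroblast genes, lower against the other gated fibroblasts of Sham, had 0 of 4 higher and 1 lower here (median 0.04). The median over all genes compared was -0.05.

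The Sham cells varied in Inmt itself, and 772 of them had an Inmt UMI whereas 188 had none. Cells with Inmt were deeper (medians of 4675 and 2690 UMIs), and few genes were apart: of 3569 compared, 31 (0.869%) were higher and 23 (0.644%) lower in cells with Inmt. Csmd1, a large complement control membrane protein, stood at 844 CPM in cells with Inmt, against 371 CPM in those without (2.27-fold, 2.00 to 2.60). C4b stood at 688 against 313 CPM (2.20-fold, 1.91 to 2.55) and the transcription factor gene Sox5 at 269 against 120.3 CPM (2.24-fold, 1.78 to 2.85). Fgf10, a growth factor that acts on epithelium, was 2.59-fold higher (1.79 to 3.89) and the splicing factor gene Nova1 2.5-fold higher (1.88 to 3.38). Cells without Inmt held more Igfbp5 (502 CPM in cells with Inmt, against 1335 CPM in those without), Rbp4, the carrier of retinol (153 against 395 CPM), and Cd55 (72.7 against 167 CPM). Of the Cd55 UMIs in cells without Inmt, 43.2% lay in 3 cells, and a Cd55 UMI was seen in 19.0% of cells with Inmt and 20.7% of those without. With the rule on barcodes thinned to 1000 UMIs, the log2 ratios of Csmd1, C4b, Sox5, Fgf10 and Nova1 were 0.70, 0.75, 0.40, 0.56 and 0.46, all under 2-fold. The interferon-induced GTPases Gbp2 and Iigp1 were 2.76-fold and 2.04-fold higher in cells with Inmt, and 22.5% of the Iigp1 UMIs lay in 3 cells. Across the alternatives, the log2 ratios smallest in size were -0.58 for Igfbp5, -0.32 for Rbp4 and -0.77 for Cd55. Those of Gbp2 and Iigp1 were 0.44 and 0.62, so these genes too fell under 2-fold.

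At D7, the 76 cells that met the rule again differed from the other gated fibroblasts, by high Gsn, Fmo2 and Ccl11 transcripts and by lower levels of contractile and several injury-matrix transcripts. Of 3734 genes compared, 165 (4.42%) were higher and 106 (2.84%) lower, and the median over all of them was 0.05 (log2). As in Sham, the rule split these same cells, so the counts test nothing. With ties kept, 101 genes were apart, against 271. Gsn, the actin-severing protein gelsolin, stood at 4957 CPM in the Inmt/Penk/C7 cells, against 1077 CPM in the other gated fibroblasts (4.60-fold, 4.41 to 4.80). The same gene stood at 16131 against 10769 CPM in Sham, so it was lower at D7 in both. Fmo2 stood at 206 against 26.0 CPM (7.95-fold, 6.39 to 9.78). Dkk2, a secreted modulator of Wnt signals, stood at 181 against 23.7 CPM (7.66-fold, 6.07 to 9.56). Ntrk2, the receptor of the neurotrophin BDNF, stood at 123 against 16.6 CPM (7.43-fold, 5.58 to 9.72). The 3 cells richest in each gene held 46.0% of the Dkk2 UMIs and 39.0% of the Ntrk2 UMIs. The log2 ratio of Dkk2 was 1.06 with the rule on barcodes thinned to 1000 UMIs, against 2.89. Ccl11, the eosinophil chemokine eotaxin, stood at 354 against 74.4 CPM (4.76-fold, 4.06 to 5.57). Rbp4 was 5.11-fold higher, with 55.2% of its UMIs in 3 of the cells, and Abca8a, a lipid transporter, 5.0-fold.

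Low at D7 were genes of the injury response. The rule left out cells with as many or more genes of the Cthrc1/Aspn set, and 934 of the other gated fibroblasts were Cthrc1/Aspn cells. This direction is therefore no independent finding. Postn, the matricellular protein periostin, stood at 302 CPM in the Inmt/Penk/C7 cells, against 2621 CPM in the other gated fibroblasts (8.67-fold lower, 7.37 to 10.3). Tnc, tenascin C, had 2 UMIs (4.17 against 114 CPM, 27.4-fold lower, 7.58 to 226). Col12a1, a collagen that associates with fibrils, had 4 UMIs (8.34 against 158 CPM, 18.9-fold lower, 7.38 to 69.4). Kif26b, a kinesin family member, and Ddah1, which degrades an inhibitor of nitric oxide synthesis, were 19.7-fold and 16.5-fold lower.

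By list, most myofibroblast genes compared were lower in the D7 cells, and most perivascular and lipid genes higher. The rule and the choice of lists bear on these directions, which are given as a description. Myofibroblast genes had 0 of 15 higher and 12 lower (median -1.83), with Acta2 at 6.25 against 155 CPM and Tagln at 4.17 against 156 CPM. Of 24 extracellular matrix genes, 0 were higher and 7 lower (median -0.46). Of 12 perivascular genes, 8 were higher and Gpx3 was lower (median 1.19). Of 14 stromal chemokine and cytokine genes, 7 were higher and 0 lower (median 1.14), with Kitl, the ligand of the receptor Kit, at 77.1 against 15.3 CPM. Cxcl13, a B cell chemokine, stood at 306 against 21.95 CPM, but 85.0% of its UMIs lay in 3 cells. Of 9 lipid handling genes, 5 were higher (median 1.30), among them Apod (548 against 153 CPM) and Lpl (346 against 98.3 CPM). Of 7 retinoid genes, 4 were higher (median 1.07), with Adh1 at 87.5 against 10.3 CPM. Amine and xenobiotic enzymes had 5 of 9 higher (median 1.06) and glucocorticoid response genes 3 of 10 (median 0.88), led by the transcriptional repressor gene Zbtb16 (91.7 against 15.8 CPM). Complement C3 stood at 1286 against 396 CPM (3.25-fold, 2.99 to 3.52). With the rule on barcodes thinned to 1000 UMIs, the medians were -0.84 for myofibroblast, 0.86 for perivascular, 0.57 for lipid, 0.22 for amine and xenobiotic and 0.01 for chemokine genes. Macrophage markers summed to 657 CPM in the Inmt/Penk/C7 cells, against 170 CPM in the other gated fibroblasts, and their part in the chemokine values was not tested.

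Against the Cthrc1/Aspn cells of D7, the injury fibroblasts, the contrast was wider still. Of 3761 genes compared, 272 (7.23%) were higher and 158 (4.20%) lower in the Inmt/Penk/C7 cells, at median depths of 5050.5 and 16262 UMIs. The rule chose the 2 groups by opposed gene sets, so these values describe them and test nothing. With ties kept, 212 genes were apart, against 430. Ntrk2 was 25.6-fold higher (123 against 4.80 CPM), Dkk2 19.6-fold (181 against 9.27 CPM) and Ccl11 14.2-fold (354 against 24.9 CPM). C3 stood at 1286 against 111 CPM (11.5-fold, 10.5 to 12.7) and Gsn at 4957 against 448 CPM (11.1-fold, 10.5 to 11.6). Pcolce2, an enhancer of procollagen processing, was 8.82-fold higher. Postn was 13.2-fold lower (302 against 3982 CPM, 11.2 to 15.6), Tnc 42.7-fold lower (11.8 to 353) and Col12a1 31.0-fold lower (12.1 to 114). Perivascular genes had 10 of 12 higher (median 1.89), chemokine genes 10 of 14 (median 1.5) and myofibroblast genes 12 of 16 lower (median -1.92), beside a median of 0.07 over all genes compared. With the rule on thinned barcodes the median of the chemokine genes was 0.38, that of the myofibroblast genes -1.08 and the log2 ratio of Dkk2 1.61, against 4.15.

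Across injury, the cells that met the rule at D7 held more transcripts of several genes than those of Sham, and less of several others. Kcnma1, Cdh11, Mfap4, Runx1, Mgp and Timp1 were higher, and Smpd3, Nova1, Fgf10 and 4 of 9 interferon response genes were lower. Gdf10, C4b and C3, by contrast, were at like levels in both. Of 3824 genes compared, 163 (4.26%) were higher and 139 (3.63%) lower at D7, and the median over all of them was 0.03 (log2). The 3 deepest of the 76 D7 cells held 12.6% of their UMIs, and genes were read with and without them, and without the 6 cells that held macrophage markers. Where a share of a gene's UMIs in 3 cells is given, these are the 3 cells richest in that gene. They were found gene by gene and need not be the 3 deepest. These alternatives were chosen after the data had been seen.

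Kcnma1, a calcium-activated potassium channel, stood at 163 CPM in the D7 cells, against 11.8 CPM in the Sham cells (13.7-fold, 9.65 to 19.7), with 65.8 CPM (5 UMIs) in D2. It was seen in 25% of the D7 cells and 2.60% of the Sham cells, and 55.1% of its D7 UMIs lay in 3 cells. Mfap4, a microfibril-associated protein, stood at 648 CPM at D7, against 83.0 CPM in Sham (7.81-fold, 6.71 to 9.08), with 145 CPM in D2. It was the least concentrated of the 10 highest named genes, with 23.2% of its UMIs in 3 cells, and at 1000 UMIs per cell it was seen in 30.3% of the D7 cells (20.2 to 41.9), against 7.19% of the Sham cells (5.64 to 9.01). In B cells of D7 the thinned Mfap4 share was 0.139%. Cdh11, a cadherin of mesenchymal cells, stood at 311 against 29.9 CPM (10.4-fold, 8.21 to 13.2), but at 150.3 CPM without the 3 deepest D7 cells. Runx1, a transcription factor, stood at 194 against 31.7 CPM (6.11-fold, 4.67 to 7.95).

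Mgp, the matrix Gla protein that restrains calcification, was the most abundant of these, with 1046 CPM in Sham, 2251 CPM in D2 and 5199 CPM in D7. The D7 level was 4.97-fold that of Sham, 52.4% of its UMIs lay in 3 cells, and without the 3 deepest cells it stood at 3755 CPM. Timp1, an inhibitor of matrix metalloproteases, stood at 67.2 CPM in Sham, 1237 CPM in D2 and 323 CPM in D7. Its D2 level rests on 5 of 11 cells, of which 3 held 95.7% of the UMIs. The transcriptional repressor gene Trps1 was 4.49-fold higher at D7 (409 against 91.1 CPM, and 255 CPM without the 3 deepest cells), the metal transporter gene Slc39a14 4.57-fold, the glutamate receptor subunit gene Gria4 4.04-fold and the scaffold protein gene Mpp6 5.18-fold.

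Smpd3, a neutral sphingomyelinase, had 5 UMIs at D7 (10.4 CPM), against 123 CPM in Sham (11.8-fold lower, 5.01 to 36.4). Nova1 stood at 29.2 against 176 CPM (6.02-fold lower, 3.57 to 11.05) and Fgf10 at 27.1 against 107 CPM (3.95-fold lower, 2.29 to 7.47). Gstp1, a glutathione transferase whose reads its near copies may share, was 3.81-fold lower, and Lifr, the receptor of leukemia inhibitory factor, 3.40-fold lower. AW112010 stood at 75.04 against 270.2 CPM (3.60-fold lower, 2.59 to 5.16). All 16 of these named genes kept their side of 2-fold as a mean over cells, without the 3 deepest D7 cells, and without the cells with macrophage markers.

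The other gated fibroblasts, which share the libraries but no cell with this comparison, had the same 16 genes on the same side of 2-fold. Kcnma1 was 43.0-fold higher there at D7 (528 against 12.3 CPM), Cdh11 24.5-fold (400 against 16.3 CPM) and Runx1 16.7-fold (523 against 31.2 CPM). Smpd3 was 93.0-fold lower there (3.46 against 322 CPM). Trps1 had a log2 ratio of 2.15 in the Inmt/Penk/C7 cells, 1.48 without the 3 deepest D7 cells, and 1.47 in the other gated fibroblasts. Of 3805 genes compared in the other gated fibroblasts, 310 (8.15%) were higher and 451 (11.9%) lower at D7. With 1 library per group the difference between the 2 sets of cells was not tested, and the makeup of the other gated fibroblasts differed between the libraries (934 Cthrc1/Aspn cells in D7, 6 in Sham).

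**Figure D4:**
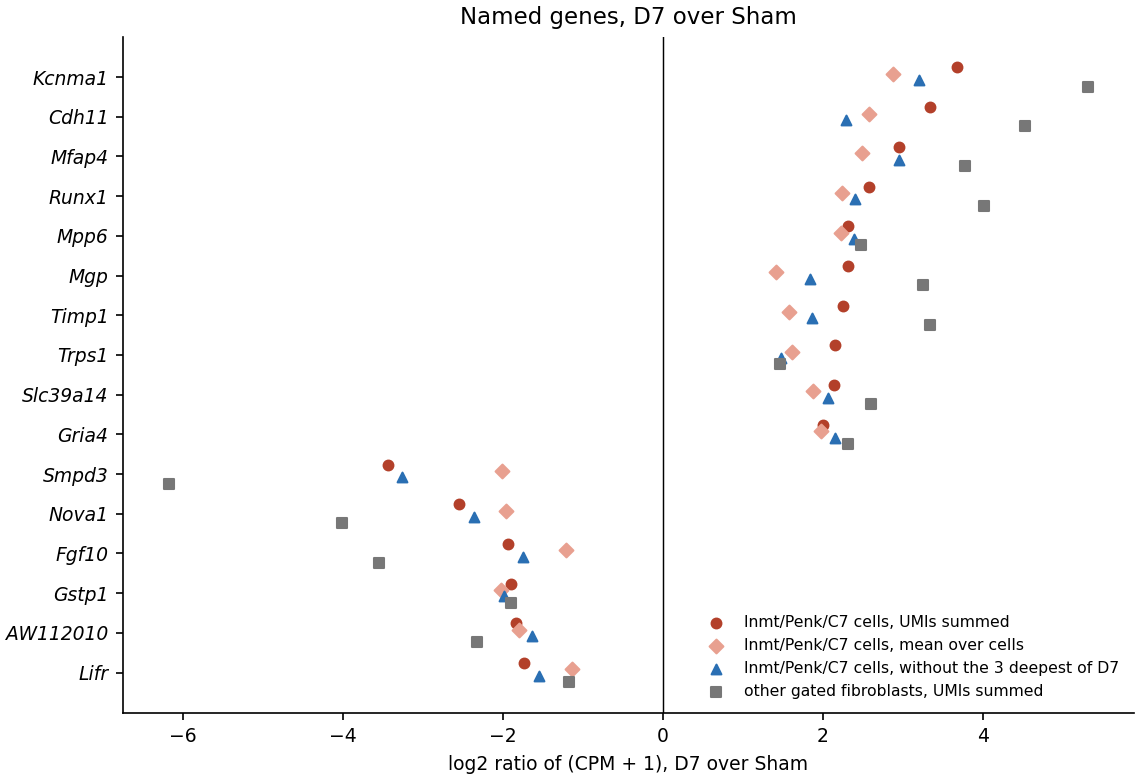
Log2 ratio of (CPM + 1), D7 over Sham, for the 16 named genes, in Inmt/Penk/C7 cells with UMIs summed (red circles), as a mean over cells (light diamonds) and without the 3 deepest D7 cells (blue triangles), and in the other gated fibroblasts (grey squares). All marks of a gene lie on the same side of 0, and Kcnma1 is highest in both sets of cells.

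Matrix genes were higher in part. Of 21 extracellular matrix genes, 7 were higher and 0 lower at D7 (median 0.43, against 1.60 with 15 of 24 higher in the other gated fibroblasts). Postn stood at 302 against 80.9 CPM (3.74-fold, 3.07 to 4.53), Comp, a cartilage matrix protein, at 304 against 82.8 CPM (3.68-fold, 3.02 to 4.45) and Col3a1, the type III collagen, at 20449 against 7264 CPM (2.82-fold, 2.75 to 2.88). Myofibroblast genes had 4 of 7 higher and 0 lower, and their median of 1.52 was 0.73 without the 3 deepest cells, 0.47 as a mean over cells and 2.64 with the rule on thinned barcodes (11 of 15 higher, median 2.75, in the other gated fibroblasts). Actn1, alpha-actinin, stood at 50.03 CPM at D7 and at 23.9 CPM without those 3 cells, against 16.8 CPM in Sham. Of 18 protease and inhibitor genes, 4 were higher and 1 lower, among them Serpina3n, a serine protease inhibitor (536 against 135 CPM, 3.97-fold, 3.42 to 4.59), and Ctsk, the collagen-cleaving cathepsin K (588 against 217 CPM, 2.71-fold, 2.37 to 3.10). Sfrp4, a secreted Wnt antagonist, stood at 1518 against 495 CPM (3.06-fold, 2.82 to 3.33). Basement membrane genes had 0 of 10 higher and 3 lower (median -0.75), with Col4a1 at 229 against 595 CPM.

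Several chemokine genes were higher and several interferon genes lower. Of 14 stromal chemokine and cytokine genes, 6 were higher and 0 lower (median 0.86, and -0.12 in the other gated fibroblasts). With the rule on barcodes thinned to 1000 UMIs, that median was -0.25 in the Inmt/Penk/C7 cells. Cxcl12 stood at 493 CPM in Sham, 1145 CPM in D2 and 1309 CPM in D7 (2.66-fold at D7 over Sham, 2.43 to 2.90). Cxcl2, which attracts neutrophils, stood at 930 against 57.3 CPM, with 63.9% of its UMIs in 3 cells, and at 445 CPM without the cells with macrophage markers. Ccl8, a monocyte chemokine, stood at 167 against 25.5 CPM, and at 63.6 CPM without those cells. The median of the list without them was 0.66. Of 9 interferon response genes, 0 were higher and 4 lower (median -0.95, and -0.89 in the other gated fibroblasts). Iigp1, which has near copies that may share its reads, stood at 37.5 against 254 CPM (6.76-fold lower, 4.26 to 11.4) and Irf1, an interferon regulatory factor, at 119 against 266 CPM (2.24-fold lower, 1.71 to 2.97).

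Of the remaining genes, among them some that set these cells apart in Sham, some were at like levels at D7 and others lower. Perivascular genes had 1 of 13 higher (Cxcl12) and 4 lower (median -0.75), with Abca8a at 238 against 764 CPM and Gpx3, an extracellular glutathione peroxidase, at 229 against 718 CPM. Gdf10 stood at 787 CPM in Sham, 1119 CPM in D2 and 798 CPM in D7, a ratio of 1.01 at D7 over Sham (0.911 to 1.13). C4b stood at 637, 737 and 607 CPM (0.953, 0.842 to 1.08) and C3 at 1415, 1501 and 1286 CPM (0.909, 0.836 to 0.987). Complement genes had 0 of 9 apart (median 0.06). Amine and xenobiotic enzymes had 0 of 13 higher and 4 lower (median -0.54), glucocorticoid response genes 0 of 10 higher and 4 lower (median -0.75) and lipid handling genes 0 of 10 higher and 3 lower (median -0.75). Lpl stood at 346 against 927 CPM and Txnip, an inhibitor of thioredoxin, at 250.1 against 720.2 CPM. Neither the glucocorticoid response genes nor Txnip were apart from the other gated fibroblasts in Sham, where those held 509 CPM of Txnip. Adventitial progenitor genes had 0 of 12 higher and 4 lower (median -0.76), and -2.43 in the other gated fibroblasts.

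**Figure D5:**
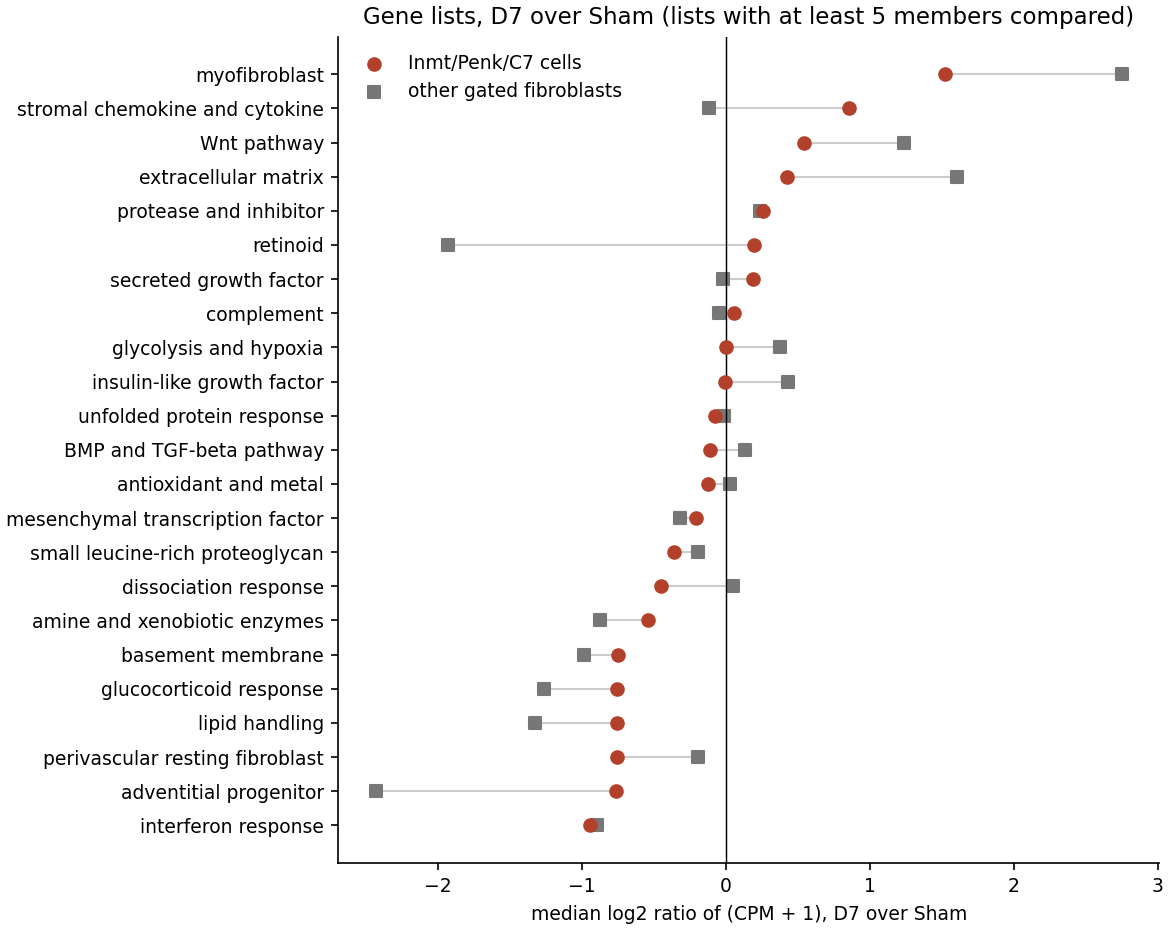
Median log2 ratio of (CPM + 1), D7 over Sham, for gene lists with at least 5 members compared, in Inmt/Penk/C7 cells (red circles) and other gated fibroblasts (grey squares), joined by a line. Myofibroblast genes stand at 1.52 and 2.75, and without the 3 deepest D7 cells the 1.52 is 0.73, below the 0.92 of chemokine and cytokine genes, and adventitial progenitor genes stand at -0.76 and -2.43.

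The D7 cells are described next by Inmt, a gene that the rule used, so these values are a description. The 37 cells with an Inmt UMI held 1592 CPM of C7, 1912 CPM of Mgp and 110 CPM of Cdh11. The 39 cells without one held 634 CPM of C7, 8666 CPM of Mgp and 523 CPM of Cdh11. Trps1 stood at 231 CPM in cells with Inmt and 595 CPM in those without, and Timp1 at 195 and 458 CPM. Mfap4 was at like levels in both, 633 and 664 CPM. Median depths were 5928 UMIs with Inmt and 4249 without. Over all 76 cells, the 3 cells richest in a gene held 52.4% of the Mgp UMIs, 59.1% of Cdh11, 53.1% of Trps1 and 45.2% of Timp1. These 3 cells were found for each gene on its own. The levels by Inmt were not read without such cells.

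Il33, the alarmin cytokine named in the series title (chr19:29925114-29960718, plus strand, mm10), was detected in these cells, at levels like or below those of the other fibroblasts of the same library. It stood at 122 CPM in Sham (113 to 133), 513 CPM in D2 (365 to 702) and 313 CPM in D7 (265 to 367) in the Inmt/Penk/C7 cells. In the other gated fibroblasts it stood at 130.3, 475 and 480 CPM. By summed CPM, D7 is thus the library where the Inmt/Penk/C7 cells were lower by more than counting error. Thinned to 1000 UMIs per cell, 10.8% of the cells held an Il33 UMI in Sham (8.94 to 13.0), 36.4% in D2 (10.9 to 69.2) and 26.3% in D7 (16.9 to 37.7), and unthinned 32.0%, 81.8% and 65.8%. Among gated B cells, at median depths of 4143, 4656.5 and 3612 UMIs, the thinned shares were 0.361%, 0.275% and 0 of 719 cells, where a limit of 3 counts allows up to 0.417%. In D7 the Cthrc1/Aspn cells held 429 CPM and the Pi16/Dpp4 cells 149 CPM, placing the Inmt/Penk/C7 cells in between by summed CPM. The thinned D7 shares were 32.6% in the other gated fibroblasts (30.9 to 34.4) and 30.9% in the Cthrc1/Aspn cells (28.0 to 34.0). In the Pi16/Dpp4 cells the share was 24.5% (13.8 to 38.3). The interval of the Inmt/Penk/C7 cells overlapped each of these, so at equal depth no difference exceeded counting error.

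The 11 cells of D2 are given as values only. Besides the levels above, Gdf10 was seen in 9 of them and Fmo2 in 7 (395 CPM, 408 CPM in Sham), and Sparcl1 stood at 65.8 CPM with 5 UMIs, against 380 CPM in Sham. Postn, Adamts16 and Dact2 had 0 UMIs. Depth ran between 1238 and 18538 UMIs per cell, and the deepest cell is the one with 37 Lyz2 UMIs.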

How the data were processed

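The deposited files hold raw UMI counts per gene and barcode in 3 matrices of 32285 genes. Per the file headers the counts came from Cell Ranger 7.1.0, and the submitters' processing notes list Cell Ranger 7.2.0 and Seurat 5.0.1 with mm10. Every deposited barcode holds at least 500 UMIs. No authors' cell annotation was used here, and the cells were selected by the rule given above. The members, gene lists and comparisons were chosen with earlier results of these data known.

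UMIs were summed over cells and scaled to CPM. Ratios are of CPM, and apartness and log2 ratios use a pseudocount of 1 CPM. Shares carry Clopper-Pearson, CPM Poisson and ratios conditional binomial intervals, all exact at 95%. No test was made. Per comparison, the 10 highest and 6 lowest genes could be named, provided that the higher group reached 100 CPM, with UMIs in 20% of its cells, and a level of at least 0.25 of that in gated B cells, macrophages, neutrophils, endothelial and mural cells. Mitochondrial, ribosomal, haemoglobin, sex-linked, predicted and rule genes were left out. Some genes that the rule names are not reported here. Up to 4 members of each of 26 lists were added (488 of 492 list genes found), and Gdf10, C3, Ccl11, Gsn, Sparcl1 and Postn are also given where a comparison named them elsewhere. Thinning drew 1000 UMIs per cell with a fixed seed.

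Scrublet (scanpy 1.11.5) called 0 doublets in Sham, where it cannot be taken to have worked, 466 (4.16%) in D2 and 220 (2.01%) in D7, 0 of them Inmt/Penk/C7 cells. Doublets were left in the main values. The steps were tested on simulated data. Python 3.11.15, NumPy 2.4.6, SciPy 1.17.1, pandas 2.3.3 and matplotlib 3.10.9 were used. 12 alternatives were tried.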

Additional observations from a re-analysis of the deposited data

Results flagged for a closer look

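Gpx3, an extracellular glutathione peroxidase, stood on opposite sides in the 2 libraries. In Sham it was higher in the Inmt/Penk/C7 cells (718 CPM) than in the other gated fibroblasts (273 CPM), a log2 ratio of 1.39. At D7 it was lower in the Inmt/Penk/C7 cells (229 CPM, 110 UMIs) than in the other gated fibroblasts (1018 CPM), a log2 ratio of -2.15. With 1 library per group this difference was not tested. The makeup of the other gated fibroblasts differed between the libraries, and its part in the result was not tested.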

How the results depend on the processing

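None of the 95 named ratios and 24 list medians beyond 2-fold changed sign under the alternatives. Of all 141 list medians, 107 kept their sign. The size of the named ratios was less stable than their sign. Of 96, 68 counted as moved with ties kept and 63 with the rule on thinned barcodes. As a mean over cells 49 moved, with a pseudocount of 10 CPM 41, and with 3 genes of the set 25. Alternatives that only filter genes cannot change a gene's ratio. The share in Sham was 32.2% with barcodes of at least 500 UMIs. Thinning to 1000 UMIs before the rule gave shares of 26.6%, 5.45% and 1.85% (Sham, D2, D7). Asking for 3 genes of the set gave 27.5% in Sham and 1.60% in D7. Keeping ties gave 49.8%, 18.8% and 7.06%, and a D7 over Sham ratio of 0.142, against 0.0689. The counts of genes apart moved by over 1.5 times as follows. Thinning gave 182 for the Inmt/Penk/C7 cells against other fibroblasts in Sham (292 in the main result) and 97 for cells with and without Inmt (54). For that last comparison 3 genes of the set gave 89, ties 24 and a pseudocount of 10 CPM 35. Ties gave 101 against other fibroblasts at D7 (271) and 212 against Cthrc1/Aspn cells (430). A mean over cells gave 151 against other fibroblasts in Sham. With no filter on low values the counts were 1151 (other fibroblasts, Sham), 3372 (other fibroblasts, D7), 1922 (Pi16/Dpp4), 3808 (Cthrc1/Aspn), 3743 (D7 over Sham) and 2399 (Inmt), and with at least 200 CPM 99, 77, 180, 135, 94 and 10, since the filter sets how many genes are compared. Il33 shares without thinning were 32.0%, 81.8% and 65.8%. Another scaling, 10% mitochondrial UMIs and left-out doublets moved none of these counts by 1.5 times. No doublet was called in Sham or among the Inmt/Penk/C7 cells. Leaving out doublets therefore could not change the counts within Sham or that of D7 over Sham. The D7 counts stayed within 1.5 times without the 3 deepest cells or the cells with macrophage markers. No paired analysis was possible because each group has 1 library. The 76 cells of D7 and 11 of D2 limit what can be seen, and pooled mice give no error between animals.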
